A study of Caenorhabditis elegans with 4 samples.

Results

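The peaks described here are places on 4 autosomes of Caenorhabditis elegans where a series-level list of DPY-26 ChIP-seq peaks marks binding and neither replicate's own list does. A peak was a member if it lay on chromosome II, III, IV or V in the series-level list and shared no base with any peak of ChIP replicate 1 or ChIP replicate 2. This rule found 428 members among 700 series-level peaks on these chromosomes and 9882 peaks in the whole list. The other 272 peaks on chromosomes II to V shared at least 1 bp with a replicate peak and are called replicate-supported below. The members were thus chosen by their overlap with the replicate lists, so the overlap itself is a description and not a finding.

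The study immunoprecipitated DPY-26 from mixed-stage embryos of the wild-type strain N2, a mixed population of males and hermaphrodites kept at 20 °C. An affinity-purified rabbit polyclonal antibody was used on embryos fixed in 2% formaldehyde for 30 minutes. The series comprises 2 ChIP libraries and 2 input DNA libraries, and every sample shares strain, genotype and stage. No library without DPY-26, and no peak list of the inputs, was used here, and nothing in the labels says whether the replicates were grown as separate cultures. The files hold positions and scores only, so the read depth behind each peak is unknown.

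Condensins are ring-shaped protein complexes that fold and compact chromosomes, and DPY-26 is one of their subunits. In C. elegans it serves in condensin I, which acts on all chromosomes in dividing cells, and in the X-specific condensin of the dosage compensation complex, which represses the hermaphrodite X chromosomes. Both complexes contain DPY-26, so the antibody does not tell them apart. No genome sequence or gene annotation of the files' build, WormBase WS220, was used here, so the peaks are given by position, without sequence or gene.

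Peaks without replicate support were the larger share of the series-level list on each of chromosomes II to V. On chromosome II 103 of 165 peaks were unsupported, on chromosome III 104 of 169, on chromosome IV 102 of 173 and on chromosome V 119 of 193. These shares were 62.4%, 61.5%, 59.0% and 61.7%, and 61.1% over the 4 chromosomes (Wilson 95% interval 57.5% to 64.7%). Such intervals allow for counting error alone and take each peak as independent. On chromosome I, an autosome outside the rule, 111 of 168 series-level peaks also overlapped neither replicate list. On the X chromosome 30.5% of 9008 series-level peaks met the same condition. The X is far more densely covered by replicate peaks, so the X and autosomal shares are not on a common footing. By length the members made up less of the list, covering 98.6 kb against 132.4 kb for the supported peaks, or 42.7% of the base pairs.

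The density of members was similar between chromosomes. It was 6.79 peaks per Mb on II, 7.55 on III, 5.83 on IV and 5.69 on V, a mean of 6.46 ± 0.872 (SD over 4 chromosomes). Supported peaks had a mean density of 4.10 ± 0.483 per Mb on the same chromosomes. The length of a chromosome was read from its last peak in any list.

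Members were narrow and low in score. Their median score, the authors' own value from the peak caller, was 5.52, with quartiles of 3.78 and 8.43 and a range of 1.46 to 28.48. Supported peaks had a median of 8.95, with quartiles of 4.75 and 14.0 and a range of 1.42 to 44.94. No source used here states the scale of the score. The lowest score in the whole list, 1.30, equals −log10 of 0.05 to 2 decimals. The medians of the members were 5.14 on chromosome II, 5.78 on III, 6.30 on IV and 4.45 on V, against 9.78, 9.03, 8.42 and 7.69 for supported peaks in the same order. The member median was thus the lower on each chromosome. A wider peak meets a replicate peak more easily by its length, and whether a stronger site does so too was not tested. Score and width may thus lean on the rule, and neither was compared by a test.

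The score ranges of members and supported peaks overlapped widely. Of the members, 96 of 428 (22.4%) scored above the supported median, and 81 of 272 supported peaks (29.8%) scored below the member median. Of the members, 143 (33.4%) lay above 7.02, the median of the whole list, against 162 supported peaks (59.6%), while 49.9% of all nuclear peaks did. At the top, 11 members and 31 supported peaks scored over 20, and 8 supported peaks scored above the highest member.

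At the median, members were narrower than supported peaks on each chromosome. The median member was 202 bp wide (quartiles 165 bp and 256 bp), and the median supported peak 349 bp (quartiles 233 bp and 521 bp). By chromosome the member medians were 198, 197, 216 and 195 bp on II, III, IV and V, against 361, 343, 306 and 371 bp for supported peaks. The list has a lower limit of width at 146 bp, and 115 members (26.9%) lay within 20 bp of it, against 26 supported peaks (9.56%). Only 9 members (2.10%) were wider than 500 bp, compared with 70 supported peaks (25.7%). Unsupported peaks of the X were nearly as narrow as the members, with a median of 230 bp, and their median score was 5.07.

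**Figure D1:**
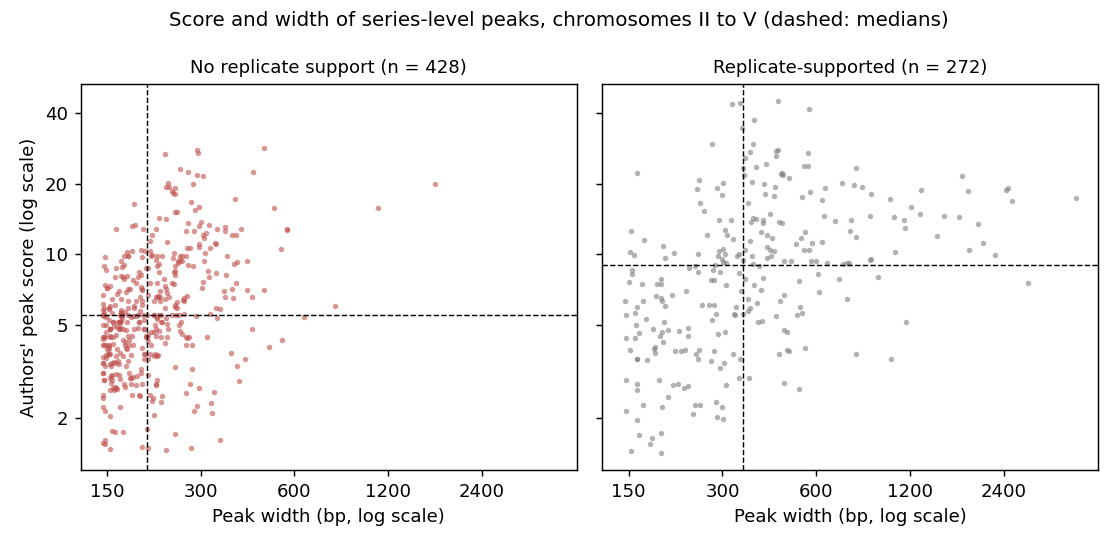
Authors' peak score against peak width, both on log scales, for 428 peaks without replicate support (left) and 272 replicate-supported peaks (right) of chromosomes II to V; each point is 1 peak and dashed lines mark the medians. Members gather at the narrow end, with a median of 202 bp and a score of 5.52, while supported peaks have medians of 349 bp and 8.95 and extend to 4087 bp.

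The share without support differed by score and by width. Peaks of chromosomes II to V were divided at the score quartiles and at the median width of 232 bp. Over both widths, the unsupported share was 69.1%, 75.7%, 61.7% and 38.3% from the lowest to the highest score quartile. Among peaks at or under 232 bp, the unsupported share was 78.4% in the lowest score quartile, then 86.2%, 79.0% and 76.2% in the highest. Among wider peaks it was 42.6%, 52.8%, 46.8% and 33.1% in the same order. Over all scores, 285 of 352 narrow peaks (81.0%, Wilson 95% interval 76.5% to 84.7%) and 143 of 348 wide peaks (41.1%, interval 36.0% to 46.3%) were unsupported. The narrow class had the higher share on each chromosome, at 84.8% against 41.9% on II, 77.1% against 41.1% on III, 73.5% against 45.6% on IV and 88.3% against 36.4% on V. In the highest quartile only 21 peaks were narrow, so the share there is known only to within 54.9% and 89.4%. A wider peak also meets a replicate peak more easily by its length alone, and the part of this in the result was not tested. The Wilson intervals take each peak as independent, although several supported peaks can lie under 1 replicate peak. They are not a test of narrow against wide peaks.

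**Figure D2:**
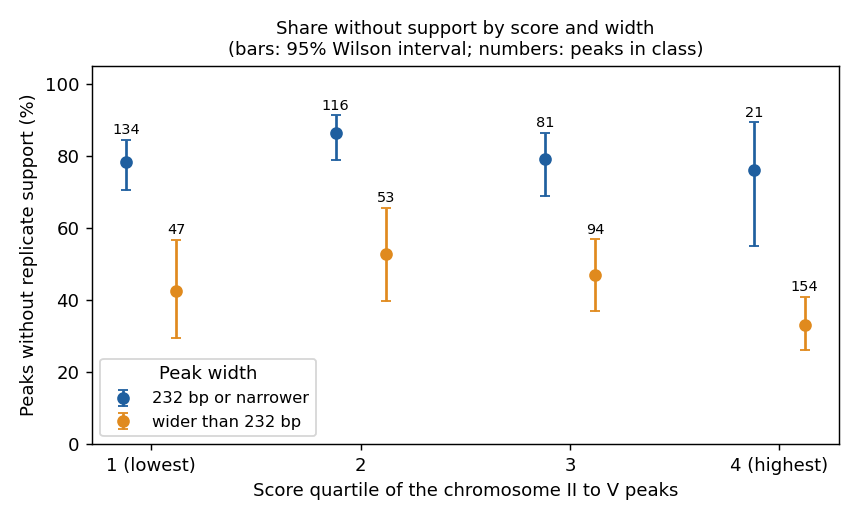
Percentage of series-level peaks of chromosomes II to V that overlap no replicate peak, by score quartile on the x axis and by width (blue: 232 bp or narrower, orange: wider); bars are 95% Wilson intervals and numbers are peaks per class. Narrow peaks sit between 76.2% and 86.2% in the 4 quartiles and wide peaks between 33.1% and 52.8%. The intervals take each peak as independent and are not a test.

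Many members carried exactly equal scores. The 428 members held 279 distinct scores, and 215 of them (50.2%) shared theirs with another member, compared with 50 of 272 supported peaks (18.4%) and 2426 of 2749 unsupported X peaks (88.3%). Shared scores become more frequent in a longer list or a narrower score range, so these shares are not on a common footing. A score of 5.52 occurred in 12 members spread over all 4 chromosomes but in 1 supported peak. Scores of 4.42 and 4.78 occurred in 10 members each and in no supported peak. A score of 4.08 occurred in 9 members and no supported peak, and 9.79 in 9 members and 1 supported peak. These scores were picked as the most frequent among members, so their lower counts in the smaller supported set follow in part from that choice. The 12 members at 5.52 were 146 bp to 256 bp wide.

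The highest-scoring members were wider than the median member of 202 bp, and most lay far from any replicate peak. The 8 highest were 231 bp to 478 bp wide. Across the members, score rose with width (Spearman's rho 0.42 over 428 peaks of 1 list, a description). The nearest replicate peak lay 51.7 kb to 408 kb from the 8 highest. For 6 of the 8 it was over 100 kb away, as it was for 54.2% of all members.

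The highest member of all lay on chromosome V at 9730891 to 9731368, with a score of 28.48 that ranked 1104 in the whole list. The nearest peak of replicate 1 was 295 kb away and that of replicate 2 386 kb away. The highest member of chromosome II lay at 11484604 to 11484895 and scored 27.81 (rank 1129). It was the closest of the 8 to a replicate peak, which belonged to replicate 2.

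The highest member of chromosome III lay at 7854436 to 7854729, scored 26.95 (rank 1162) and had no other series-level peak within 143 kb. On chromosome IV the highest member lay at 390369 to 390599 and scored 26.80 (rank 1167). Its nearest replicate 2 peak was 2605 kb away, whereas replicate 1 had a peak at 246 kb. The 4 chromosomes thus reached nearly the same maximum, between 26.80 and 28.48.

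The other 4 of the 8 scored between 21.84 and 23.08. They lay on chromosome III at 4568557 to 4568813, on chromosome II at 10033462 to 10033734 and 5346395 to 5346685, and on chromosome V at 15464928 to 15465368. Both chromosome II peaks had another series-level peak within 1000 bp, itself without support, while the chromosome III and V peaks stood alone. At the other end, the lowest member lay on chromosome IV at 10262987 to 10263218 with a score of 1.46 (rank 9851).

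Few members were near misses of the overlap rule. The nearest replicate peak lay at a median distance of 115 kb, with quartiles of 40.02 kb and 221 kb. Within 500 bp of a replicate peak lay 3 members (0.701%), within 1000 bp 9 members (2.10%) and within 10000 bp 41 members (9.58%). Over 100 kb away lay 232 members (54.2%). The median distance was 147 kb to replicate 1, which has 191 peaks on these chromosomes, and 263 kb to replicate 2, which has 106. Both lists are thus sparse over the 67.4 Mb of these chromosomes, and distance is the measure that the rule used. No distance was computed for other positions, so these values cannot be read as a trait of the members. Across members, score was nearly unrelated to the distance from the nearest replicate peak (Spearman's rho 0.06 over 428 peaks of 1 list, a description).

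**Figure D3:**
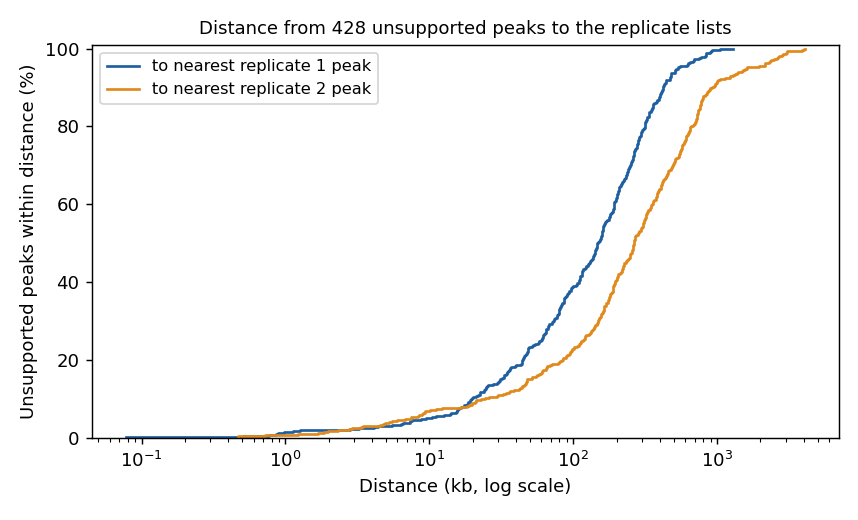
Cumulative percentage of the 428 unsupported peaks that have a peak of replicate 1 (blue) or replicate 2 (orange) within the distance on the x axis (kb, log scale). The median distances are 147 kb to replicate 1 and 263 kb to replicate 2, and under 10% of members lie within 10 kb of either list.

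Just outside the threshold were 4 members with a gap of 78 bp to 509 bp. The closest lay on chromosome V at 9087575 to 9087971, scored 2.86 and lay 78 bp from a replicate 1 peak. The next were on chromosome II at 11959150 to 11959629 (score 7.02, 469 bp from replicate 2), on chromosome V at 8893855 to 8894017 (score 3.48, 471 bp from replicate 2) and on chromosome II at 8287551 to 8287829 (score 1.48, 509 bp from replicate 1). Just inside it, the supported peaks whose larger overlap with either list was smallest shared 28, 71, 94 and 95 bp with a replicate 1 peak. They lay on chromosome II at 11759491 to 11759670 (score 4.79), on chromosome V at 1713701 to 1713876 (score 1.54) and 19142636 to 19142781 (score 6.30), and on chromosome II at 13790732 to 13790878 (score 5.52). The supported peaks are ranked by the larger of their overlaps with the 2 lists; one supported peak, on chromosome IV at 3233580 to 3233774, met replicate 1 by 3 bp but replicate 2 over its whole 195 bp.

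Most members stood alone in the series-level list. Of the 428, 332 (77.6%, Wilson 95% interval 73.4% to 81.3%) had no other series-level peak within 5 kb, 77 (17.99%) had only other members that close, and 19 (4.44%) had a supported peak that close. Among supported peaks 93 (34.2%, interval 28.8% to 40.01%) stood alone. The isolated share of members was 78.6% on II, 84.6% on III, 76.5% on IV and 71.4% on V, against 40.3%, 32.3%, 36.6% and 28.4% of supported peaks in that order. With peaks under 1 replicate peak counted once, the 272 supported peaks made up 179 regions. Such peaks lower the isolated share of supported peaks, and that share was not recounted by region. Isolated members had a median score of 5.52, those near other members only 4.79 and those near a supported peak 5.00, so company did not go with a higher median score.

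The median gap to the nearest other series-level peak was 31.8 kb for members and 0.805 kb for supported peaks. It was longer for members on all 4 chromosomes, at 31.8, 33.6, 25.2 and 38.5 kb on II, III, IV and V, against 0.901, 0.451, 0.992 and 0.666 kb. The mean difference of the log2 medians was 5.47 ± 0.695 (SD, n = 4 chromosomes). The exact two-sided sign-flip test over chromosomes gave p = 0.13, the smallest value that 4 chromosomes allow (0.25 after Benjamini-Hochberg adjustment over 2 tests), so the design cannot reach 0.05. Several series-level peaks often lay under 1 wide replicate peak, so spacing is not fully independent of the rule. With such peaks counted as 1 region, a choice made after seeing the data, the supported median gap was 22.6 kb, and the difference dropped to 0.58 on the log2 scale, still positive on all 4 chromosomes (exact sign-flip p = 0.13). The member and supported gaps were then 31.8 and 24.6 kb on II, 33.6 and 24.8 kb on III, 25.2 and 23.4 kb on IV, and 38.5 and 14.6 kb on V. The log2 differences were 0.37 on II, 0.44 on III, 0.11 on IV and 1.40 on V, so the mean leaned on V.

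Members grouped into few runs. With members under 5 kb apart joined, 347 members remained single, 62 formed 31 pairs, 15 formed 5 runs of 3 and 4 formed 1 run of 4. The run of 4 lay on chromosome IV at 11070852 to 11075601. It held the widest member of the whole set, 1700 bp at 11070852 to 11072551, followed by members of 1110, 566 and 566 bp, and these 4 are among the 9 members wider than 500 bp. Their scores were 19.87, 15.66, 12.69 and 12.81, each above the supported median of 8.95. The peaks covered 3942 of the 4750 bp of the run. Outside the run the widest member measured 810 bp.

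This run of wide peaks met no replicate peak, but it lay closer to one than the median member did (115 kb). Replicate 1 had its nearest peak 44.4 kb away and replicate 2 43.9 kb away. Both of these peaks marked one supported site, at 11025871 to 11026438, which scored 41.83 in the series-level list. Another member, at 11027710 to 11027923 with a score of 5.00, flanked that supported site at 1.27 kb.

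**Figure D4:**
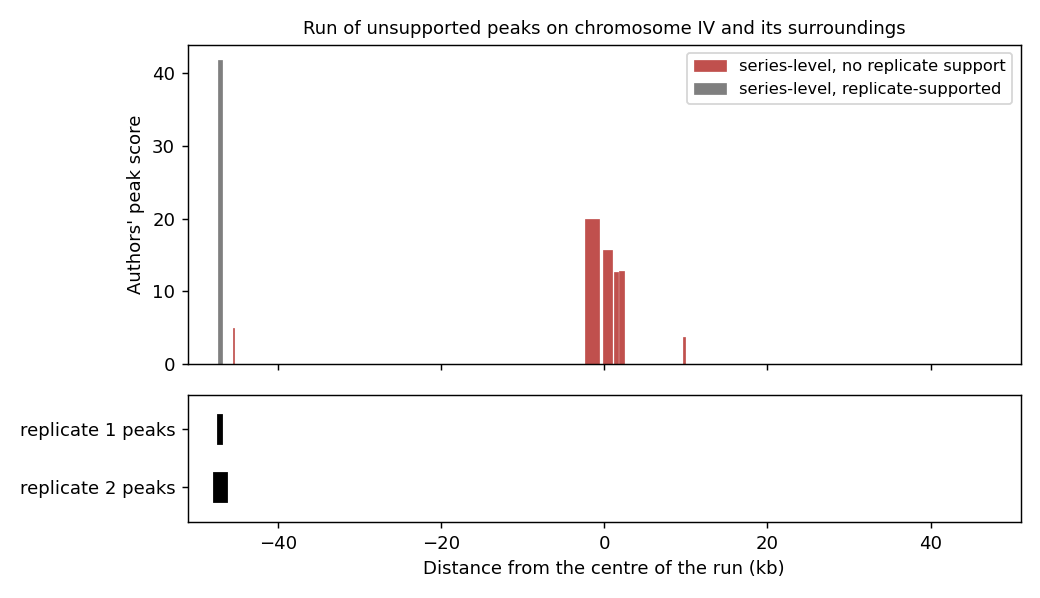
Series-level peaks within 50 kb of the run of 4 members on chromosome IV, drawn to scale by distance from its centre (kb) with the authors' score as height (red: no replicate support, grey: replicate-supported), above the peaks of both replicates. The 4 members of the run score 12.69 to 19.87, and the only replicate peaks in the window lie more than 43 kb to the left, under the supported site at a score of 41.83.

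The runs of 3 held narrower peaks. The one with the highest score lay on chromosome II at 5346395 to 5350598, with scores of 5.52 to 21.84 and widths of 146 bp to 291 bp, at least 192 kb from any replicate peak. The others lay on chromosome II at 13598725 to 13599661, on III at 13712958 to 13721244 and on IV at 15931239 to 15933344 and 16398162 to 16400973, with a highest score of 10.26. The widest members of the remaining chromosomes were not in such runs. They were 646 bp on V at 13923290 to 13923935 (score 5.39), 547 bp on III at 8862718 to 8863264 (score 4.30) and 544 bp on II at 10301867 to 10302410 (score 10.55).

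Members were spread over nearly the whole of each chromosome. Of 67 bins of 1 Mb, 66 held at least 1 member and 60 at least 1 supported peak. The members are the larger set, and a larger set fills bins more readily by number alone. The members numbered 6.25 ± 2.85 per bin (SD over 67 bins, range 0 to 15) and the supported peaks 4.06 ± 3.86 (range 0 to 17). The variance over the mean was 1.30 for members and 3.67 for supported peaks, or 1.90 for supported regions with the peaks under 1 replicate peak counted once. Counts of members per bin thus varied less relative to their mean, as a description without a test. Only the supported peaks were also counted by region, and bin counts do not measure the spacing of single peaks.

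The bins with most members differed in how many supported peaks they held. On chromosome IV the bin at 11 to 12 Mb held 15 members, 4 of them in the run above, beside 13 supported peaks. On III the bin at 6 to 7 Mb held 13 members and 0 supported peaks. On II the bin at 5 to 6 Mb held 13 members and 7 supported peaks, and on V the bin at 14 to 15 Mb held 11 members and 3 supported peaks.

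The position of members between centre and arms showed no common direction against that of supported peaks. In the central 50% of their chromosome lay 243 of 428 members (56.8%, Wilson 95% interval 52.04% to 61.4%) and 149 of 272 supported peaks (54.8%, interval 48.8% to 60.6%). The central share of members was 54.4% on II, 61.5% on III, 48.0% on IV and 62.2% on V, against 37.1%, 58.5%, 67.6% and 54.1% of supported peaks. The mean difference was 2.23 ± 15.7 percentage points (SD, n = 4 chromosomes), positive on 3 chromosomes and negative on IV. Its sign turned with chromosome I added (-0.379) and with replicate 2 as the only source of support (-3.87). The exact two-sided sign-flip test gave p = 0.75, also after adjustment over 2 tests, where 0.13 is the smallest possible value. The difference was smaller than its spread between chromosomes, and this does not show that the positions are alike.

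**Figure D5:**
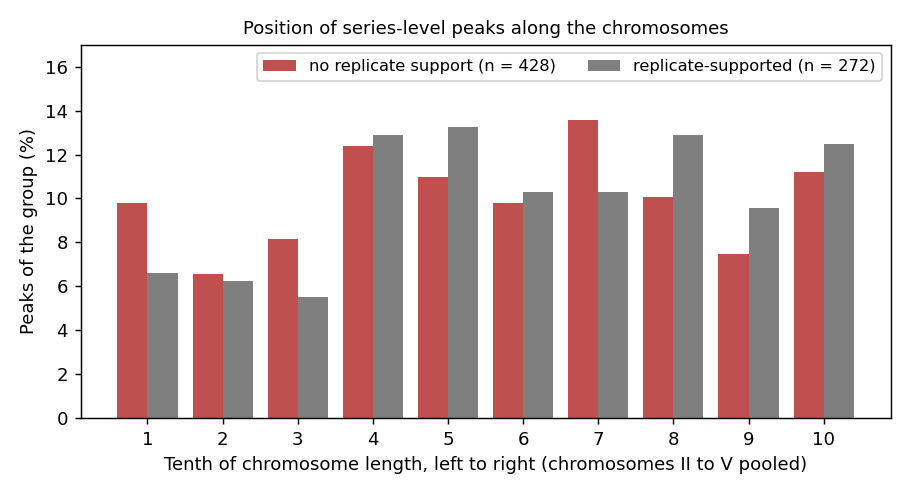
Percentage of the 428 unsupported peaks (red) and of the 272 replicate-supported peaks (grey) in 10 equal parts of chromosome length, chromosomes II to V pooled. Members take between 6.54% and 13.6% in each part and supported peaks between 5.51% and 13.2%.

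The last series-level peak of each of the 4 chromosomes was a member. These peaks lay at 15165840 to 15166075 on II (score 20.09), 13783384 to 13783553 on III (7.81), 17493463 to 17493824 on IV (8.17) and 20923853 to 20924000 on V (7.39). At the left ends only the first peak of III was a member, with a score of 7.12, while the first peaks of II, IV and V overlapped replicate 1. With chromosome lengths of the build not used here, how far these peaks lie from the chromosome ends was not measured. Of all series-level peaks on chromosomes II to V, 61.1% were members. The end peaks were picked after their values were seen, and the difference between right and left ends was not tested.

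The comparison of lists also ran the other way. On chromosomes II to V, 61 of 191 replicate 1 peaks and 9 of 106 replicate 2 peaks overlapped no series-level peak, so the series-level list is not simply a longer version of the replicate lists. The supported peaks comprised 68 that overlapped both replicates, 117 that overlapped replicate 1 alone and 87 that overlapped replicate 2 alone. The replicate lists and the series-level list name different versions of the peak caller, and which threshold set each list is not given. A member is therefore a peak that 2 shorter lists do not contain, which does not measure whether the ChIP signal at that place was lower in them.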

How the data were processed

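Positions and scores of peaks were read from 1 series-level list and from the lists of 2 ChIP replicates. The score of each peak is a deposited value that the authors' peak caller gave; the start and end are deposited positions. Peaks came from MACS in the replicate lists and MACS v2 in the series-level list, on WormBase WS220, per the file headers and source fields. Reads were aligned with BWA to ce10, per the submitters' processing notes. No source used here states controls, filters or pooling, and the depth is unknown. Scores were compared within the series-level list only.

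Overlap of 1 bp with either replicate list counted as support, and bedtools 2.31.1 gave the same 428 members. Gaps are bases between peaks. Chromosome lengths are the largest peak end, bins are 1 Mb with a last bin kept from 50% of that length. The position and spacing tests were exact sign-flip permutation tests over 4 chromosomes. The sign-flip calculation was tested on simulated differences, not on simulated positions or spacings, and the overlap search on simulated peaks. Shares have Wilson 95% intervals. Python 3.11.15, numpy 2.4.6, pandas 2.3.3, scipy 1.17.1 and matplotlib 3.10.9 were used. Named regions follow a rule: the 8 highest members, the highest and widest of each chromosome, the 4 nearest to and the 4 least inside the overlap threshold, the fullest bins and the largest run; other runs and the chromosome ends were chosen after their values were seen. Members and lists were chosen with earlier results of these data known. Alternatives changed the overlap rule, replicates, score, chromosomes, peak merging and the definition of the centre.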

Additional observations from a re-analysis of the deposited data

How the results depend on the processing

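The number of members (428) stayed within 1.5 times under 6 of 7 alternatives; with only the peaks at or above the median score it was 175, beside 175 supported peaks. Without replicate 1 or without replicate 2 as a source of support there were 515 to 545 members. The same score limit raised the median score to 9.32 and the median width to 242 bp, as its construction sets. Across the replicates left out, the median width was 208 to 217 bp and the median score 5.52 to 5.81. The central share difference of 2.23 percentage points reversed to -0.379 with chromosome I added and was -3.87 to 3.08 without 1 replicate, the negative value coming without replicate 1; the cause was not tested. It was 10.8 with the higher-scoring peaks alone, 0.955 with 50% cover, 0.131 for the central 60% (positive on 2 of 4 chromosomes) and 0.531 for the central 40% (positive on 1 of 4). The longer spacing of members kept its direction on every chromosome in all 8 alternatives, at 0.58 to 5.53 on the log2 scale. Without 1 replicate it was 4.79 to 5.40, and with peaks within 500 bp merged it was 1.89. The value of 0.58 came from counting supported peaks under 1 replicate peak as 1 region. The remaining alternatives did not count them so. Spacing in them leans in part on the rule, and whether counting by region removes this was not tested. The shared direction of the alternatives is not independent evidence. No paired analysis was possible because the groups with shared replicate numbers are ChIP and input, and no input peak list was used here. With 4 chromosomes no test could pass 0.05, so unchanged p-values say nothing about stability. The depth behind a peak is unknown, so absence from a replicate list cannot be read as absence of binding.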
